A study of Rattus norvegicus with 18 samples.

Results

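Transcripts of fatty acid oxidation and of the electron transfer flavoprotein route were followed in whole kidney of S.SHR(2) and Dahl S rats. The set held 10 genes, taken by symbol from the annotation of the Affymetrix Rat Genome 230 2.0 array, out of 14217 genes that a probe set names alone. They were Cpt1a, Cpt2, Acadvl, Acadl, Acadm, Acads, Hadh, Etfa, Etfb and Etfdh, with 12 probe sets between them, 2 each for Cpt1a and Hadh and 1 for every other gene. Kidneys of 9 S.SHR(2) and 9 Dahl S rats were profiled, with 1 array per rat. Dahl S is the inbred salt-sensitive strain SS/Jr, and S.SHR(2) is a congenic that the labels trace to SS/Jr and SHR/NHsd. Its name places the SHR segment on chromosome 2. The series title calls the congenic renal protective, and both strains share the Dahl S background outside the introgressed segment. The design text speaks of male rats of 4, 12 and 20 weeks, 3 per strain and age, but the labels give an age to 2 rats only. These were Dahl S replicate 2 (4 weeks) and Dahl S replicate 4 (12 weeks), both on 0.3% NaCl chow, so age entered no comparison. In accession order the arrays form 3 runs of 6, each with 3 S.SHR(2) and 3 Dahl S rats, and these runs are called the first, the second and the third deposit block. What a block stands for is not labelled. Strains were therefore compared over all rats and within each block, and levels between blocks are given as descriptions without a test.

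Fatty acid oxidation is the main fuel route of the proximal tubule, the nephron segment that reabsorbs most of the filtrate. Carnitine palmitoyltransferases carry long fatty acids into mitochondria, acyl-CoA dehydrogenases of different chain-length preference take the first oxidation step, and hydroxyacyl-CoA dehydrogenase takes the third. The acyl-CoA dehydrogenases hand their electrons to the electron transfer flavoprotein, a dimer of the Etfa and Etfb products. The Etfdh product, an iron-sulfur flavoprotein of the inner mitochondrial membrane, passes them on to ubiquinone and so to the respiratory chain. In humans, loss of ETFA, ETFB or ETFDH causes multiple acyl-CoA dehydrogenase deficiency, in which these dehydrogenases all stall.

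Etfdh, Hadh and Acadm lie on chromosome 2, the chromosome of the introgressed segment. Their promoters are shown because these 3 genes could lie in the segment by which the strains differ. RefSeq promoter sequences of the assembly GRCr8 (250 bases before to 50 after the start) were matched for 9 of the 10 genes, all but Acadl. The sequences are those of the reference rat and not of Dahl S or SHR. Capitals mark the site of the mitochondrial gene regulator NRF1 (GCGCA and GCGC with any 1 base between them), AGGTCA, the half-site of nuclear receptors, and GGGCGG, the GC box. Both strands were searched, and no marked sites overlapped. The Etfdh promoter is chr2:167060709-167061008, the Hadh promoter chr2:222504397-222504696 and the Acadm promoter chr2:245542815-245543114, all on the minus strand and written 5′ to 3′.
Etfdh: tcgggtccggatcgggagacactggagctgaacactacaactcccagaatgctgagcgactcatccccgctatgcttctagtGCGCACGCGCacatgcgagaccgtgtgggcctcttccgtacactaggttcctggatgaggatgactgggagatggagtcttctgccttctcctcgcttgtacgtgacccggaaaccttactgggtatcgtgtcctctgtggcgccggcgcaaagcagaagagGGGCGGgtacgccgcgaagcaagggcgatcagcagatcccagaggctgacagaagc
Hadh: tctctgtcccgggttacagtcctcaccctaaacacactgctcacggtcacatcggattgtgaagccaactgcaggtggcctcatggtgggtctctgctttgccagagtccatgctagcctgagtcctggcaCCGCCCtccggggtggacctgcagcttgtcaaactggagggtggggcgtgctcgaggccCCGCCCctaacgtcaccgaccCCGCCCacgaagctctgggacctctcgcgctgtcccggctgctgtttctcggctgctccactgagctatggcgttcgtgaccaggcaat
Acadm: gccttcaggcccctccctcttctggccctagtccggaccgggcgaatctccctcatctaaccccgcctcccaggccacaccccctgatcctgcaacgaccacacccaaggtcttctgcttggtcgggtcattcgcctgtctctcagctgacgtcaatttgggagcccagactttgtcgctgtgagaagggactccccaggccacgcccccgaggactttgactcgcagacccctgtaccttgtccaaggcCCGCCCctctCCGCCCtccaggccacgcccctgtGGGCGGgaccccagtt
The NRF1 letters stood in the promoters of Etfdh and Etfb, in 2 of the 9 matched, against 4.25% of 33469 rat promoters of the same length. In Etfdh the site began 168 bases before the start, and in Etfb 58 bases before it. GC boxes stood in 6 of the 9, with 3 in Hadh, 3 in Acadm and 1 in Etfdh, against 33.1% of all promoters. The nuclear receptor half-site stood in Acadvl alone, against 16.2% of all, and neither TNAAGGTCA, the element of the oestrogen-related receptors (1.20% of all), nor a pair of AGGTCA with any 1 base between them, the DR1 site bound by PPAR alpha (0.0538% of all), stood in any of the 9. Both TNAAGGTCA and the DR1 site contain the half-site letters. None of the 9 held the letters TATAAA (14.2% of all) or CACGTG (6.42% of all), and 3 held CCAAT, namely Acads, Etfa and Etfb (37.5% of all). A match of letters describes these windows and is not a site of binding.

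Values are the deposited intensities, and differences are S.SHR(2) minus Dahl S on the scale log2(intensity + 16) after quantile normalization. Of 31042 probe sets, 18625 were tested after the dimmest were left out, and a call is a limma adjusted p under 0.05 over all of them. Such calls were rare, with 23 probe sets or 0.123% of those tested, 4 higher and 19 lower in S.SHR(2). One array of each strain stood apart by the ratio of the 3′ to the 5′ GAPDH control probe set, a measure of RNA integrity. The ratio was 2.51 on S.SHR(2) replicate 1 and 2.04 on Dahl S replicate 5, against 1.19 to 1.74 on the other 16 arrays. Acadm and Hadh had their lowest intensity on the first of these arrays and their second lowest on the other. Etfdh and Etfa had their lowest on Dahl S replicate 5. Results that rest on these arrays are therefore also given without them, an alternative chosen after the data were seen. Precision is set by the 9 arrays per strain.

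Etfdh, measured by probe set 1371519_at, was higher in S.SHR(2), and it was the one gene of the set that was called. Its intensities were 890, 1006 and 1006 in S.SHR(2), against 821, 833 and 677 in Dahl S, in the first block. In the second they were 841, 1015 and 957 in S.SHR(2), against 792, 636 and 698 in Dahl S. In the third they were 1040, 969 and 999 in S.SHR(2), against 729, 749 and 807 in Dahl S. Within each block every S.SHR(2) kidney lay above every Dahl S kidney, and by deposited intensity this held across all 18 rats, since the lowest S.SHR(2) value was 841.2 and the highest Dahl S value 833. On the deposited scale 0.0215% of tested probe sets were higher without overlap (0.113% in either direction), and 0.15% were so within each of the 3 blocks on the normalized scale (0.349% in either direction). After normalization, where 0.0107% of probe sets were higher and 0.102% higher or lower without overlap, its ranges over 18 rats touched, with S.SHR(2) replicate 4 below Dahl S replicate 2, both at 9.75 on the log2 scale. The mean intensity was 969 ± 64.6 in S.SHR(2) and 749 ± 69.3 in Dahl S (SD, n = 9 each). In whole kidney, fewer cells of a type and less RNA per cell cannot be told apart. Beside this difference, all 5 tubular injury markers lay below 0, none of them called, with a median log2 difference of −0.35. Their summed level was 2010 to 9991 in S.SHR(2) and 3191 to 12710 in Dahl S, and its part in the Etfdh difference was not tested.

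The log2 difference of Etfdh was 0.34 ± 0.0668 (SE, 95% interval 0.20 to 0.48), a 1.27-fold higher level, with a limma adjusted p of 0.042. It ranked 21st among the 18625 probe sets by p, 1 of the 4 called as higher (0.0215%). The size was alike in the blocks, at 0.31 ± 0.109 in the first, 0.39 ± 0.109 in the second and 0.33 ± 0.109 in the third (SE). None of these passed over all probe sets on 3 rats against 3 (limma adjusted p = 0.35, 0.50 and 0.26; unadjusted p = 0.0096, 0.0018 and 0.0069). The interaction of strain and block gave an unadjusted p of 0.87. With the deposit block as a covariate the difference was again 0.34 (SE 0.0609, adjusted p = 0.0051), among 92 probe sets called (0.494%; 0.177% as higher). The adjusted p stood close to the threshold. It rose to between 0.0535 and 0.11 without S.SHR(2) replicate 2, 3, 5, 6, 7, 8 or 9 or Dahl S replicate 3, 4, 5, 6, 7 or 8, and to 0.058 without both arrays of high GAPDH ratio, while the difference stayed between 0.31 and 0.37 in all fits without 1 rat. Etfdh has 1 probe set on the array, so no second one could be compared. Elsewhere on chromosome 2, probe sets of the same gene could disagree. A called Mecom probe set stood at −1.63 and the brightest at −0.18, and those of Tiparp at −1.58 and 0.01. For Chd1l (−0.62 and −0.47) and Gucy1b1 (−0.78 and −0.51) both were below 0. Whether the Etfdh difference is one of RNA level or of probe binding between the strains was not tested.

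**Figure D1:**
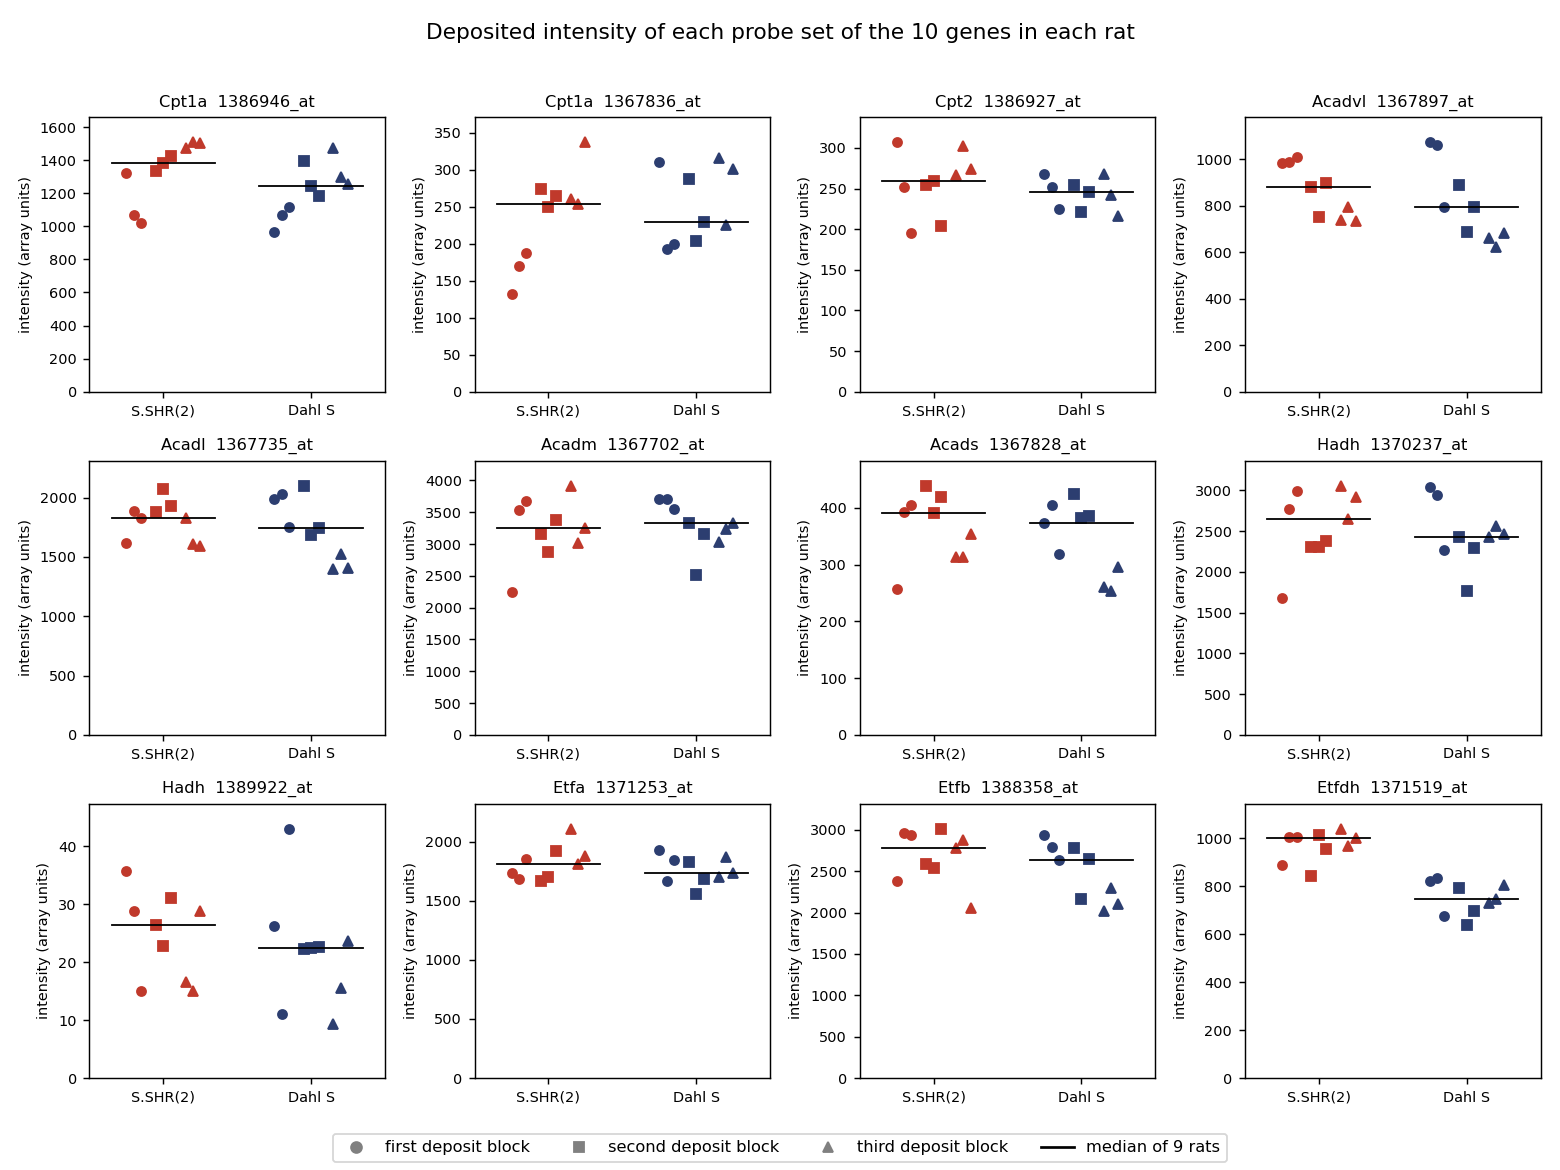
Deposited intensity (array units, axis from 0) of the 12 probe sets of the 10 genes in 9 S.SHR(2) (left) and 9 Dahl S rats (right). Marker shapes give the deposit block and lines the median of 9 rats. The 9 S.SHR(2) values of Etfdh sit between 841.2 and 1039.6, all above the Dahl S values, while the ranges of every other probe set overlap.

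The partners of the Etfdh product, the 2 subunits of the flavoprotein itself, gave no call. Etfa, the alpha subunit, had 1670.7, 1814.8 and 2109.9 as lowest, median and highest intensity in S.SHR(2), against 1555.9, 1739.6 and 1934 in Dahl S. The ranges overlapped, with both ends higher in S.SHR(2), and the difference on the normalized scale was 0.01 ± 0.0531 (SE, 95% interval −0.10 to 0.12). Etfb, the beta subunit, had 2056.8, 2784.1 and 3013.6 in S.SHR(2), against 2022.3, 2640.5 and 2933.2 in Dahl S. Its difference was 0.08 ± 0.0695 (SE, 95% interval −0.06 to 0.22, limma adjusted p = 1). The lowest Etfb value in each strain came from the third block, S.SHR(2) replicate 9 and Dahl S replicate 7.

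The carnitine shuttle genes did not pass the test. Cpt1a encodes the outer membrane carnitine palmitoyltransferase of liver and kidney, the step that malonyl-CoA inhibits. Its brighter probe set, 1386946_at, had 1018.4, 1380.6 and 1507.7 as lowest, median and highest in S.SHR(2), against 966.9, 1241.7 and 1472.9 in Dahl S (difference 0.09 ± 0.0883 SE, limma adjusted p = 1). The other, 1367836_at, had 132, 254.1 and 337 in S.SHR(2), against 192.6, 229.1 and 315.6 in Dahl S (−0.09 ± 0.148). The 2 probe sets thus pointed opposite ways, each within its error. In the first block alone 1367836_at read 132, 169.7 and 187.6 in S.SHR(2), below the 192.6, 199.1 and 310.6 of Dahl S. That difference was −0.46 ± 0.175 (SE, unadjusted p = 0.016, limma adjusted p = 0.39) and −0.34 ± 0.183 without the 2 arrays of high GAPDH ratio. Cpt2, the inner membrane transferase, had 194.8, 259 and 306.9 in S.SHR(2), against 216.4, 246.4 and 267.9 in Dahl S (0.08 ± 0.0844). Its S.SHR(2) range enclosed the Dahl S range.

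Among the acyl-CoA dehydrogenases none was called. Acadvl, for very long chains, had 733.7, 879.8 and 1012 as lowest, median and highest in S.SHR(2), against 620.5, 794.9 and 1072.9 in Dahl S (0.10 ± 0.112 SE). Acadl, for long chains, had 1593.9, 1827.4 and 2076.2 in S.SHR(2), against 1398.4, 1746.2 and 2101.2 in Dahl S (0.03 ± 0.078). Both pairs of ranges overlapped widely. Acadm, for medium chains, had 2250.5, 3255.2 and 3918.9 in S.SHR(2), against 2518.5, 3322.6 and 3713.7 in Dahl S (−0.06 ± 0.083, 95% interval −0.23 to 0.11). Acads, for short chains, had 257.9, 390.4 and 439.3 in S.SHR(2), against 254.3, 373.2 and 423.6 in Dahl S (0.09 ± 0.12). The limma adjusted p was 1 for each of the 4. Acadm was the dehydrogenase with the lower mean in S.SHR(2), and its sign turned with arrays centred on their medians (0.01). The Acadm difference was 0 without S.SHR(2) replicate 1, and −0.05 without both arrays of high GAPDH ratio. In the first block it was −0.21 with all arrays and −0.02 without those 2.

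Hadh, which oxidizes medium and short 3-hydroxyacyl-CoA, gave a level difference near 0. Its bright probe set, 1370237_at, had 1685.7, 2643.4 and 3059.9 as lowest, median and highest in S.SHR(2), against 1770.9, 2430.3 and 3045.3 in Dahl S (0.01 ± 0.105 SE, 95% interval −0.21 to 0.23). The sign turned in 5 of the 18 fits without 1 rat (−0.04 to 0.08 over all). Without both arrays of high GAPDH ratio the difference was 0.03. The second probe set, 1389922_at, read 15 to 35.8 in S.SHR(2) and 9.4 to 43 in Dahl S, was left out as dim and was not tested.

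Over the 11 tested probe sets, 1 was called as higher and none as lower, against 0.0215% and 0.102% of all tested. That one, Etfdh, was also the only one with an unadjusted p under 0.05, against 4.02% of all tested. The 10 genes were chosen with earlier results of these data known, so such counts are descriptions only. Of the 11, 9 lay above 0 and 2 below, against 51.5% above 0 among all tested, and their median was 0.08, against 0.004. Without Etfdh the other 10 ran from −0.09 to 0.10 with a median of 0.05 and a lowest unadjusted p of 0.26. The probe sets share the same arrays and are not independent of each other. The median of all tested probe sets was −0.012 on the deposited values and 0.031 after centring each array on its median.

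The blocks differed in how many of the 11 lay above 0. In the first block 4 of 11 were above 0 with a median of −0.03, in the second 10 with a median of 0.08, and in the third 10 with a median of 0.12. Over all tested probe sets the share above 0 was 51.6%, 50.8% and 52.2% in these blocks. Without the 2 arrays of high GAPDH ratio 5, 8 and 10 of the 11 were above 0, with medians of −0.01, 0.02 and 0.12. The differences were above 0 in each block for 4 of the 11, against 14.9% of all tested. On the normalized scale the S.SHR(2) range of the first block lay above the Dahl S range for Etfdh (5.91% of all tested) and below it for 1 Cpt1a probe set (10.8% in either direction). In the second block it lay above for Etfdh alone among the 11 (4.26% of all as higher, 9.21% in either direction). In the third block it lay above for 4 of the 11, namely Etfdh, Cpt2, Acadvl and Acads, against 10.5% of all tested as higher and 18.9% in either direction. Acads there read 313.3, 313.2 and 353.2 in S.SHR(2), against 261.1, 254.3 and 295.2 in Dahl S (0.28 ± 0.141 SE, unadjusted p = 0.064, limma adjusted p = 0.52). Acadvl read 739.7, 793.2 and 733.7 in S.SHR(2), against 659.6, 620.5 and 680.8 in Dahl S (0.17 ± 0.117). No strain difference within a block passed over all probe sets, where 0.161%, 0.123% and 0.338% did in the first, the second and the third block. An unadjusted p under 0.05 was found for 2, 1 and 1 of the 11 in these blocks, against 10.4%, 3.16% and 10.4% of all. No interaction of strain and block was called among the 11 (0.00537% of all tested), and none had an unadjusted p under 0.05 (6.56% of all). A difference between the blocks in the strain effect was therefore not shown.

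**Figure D2:**
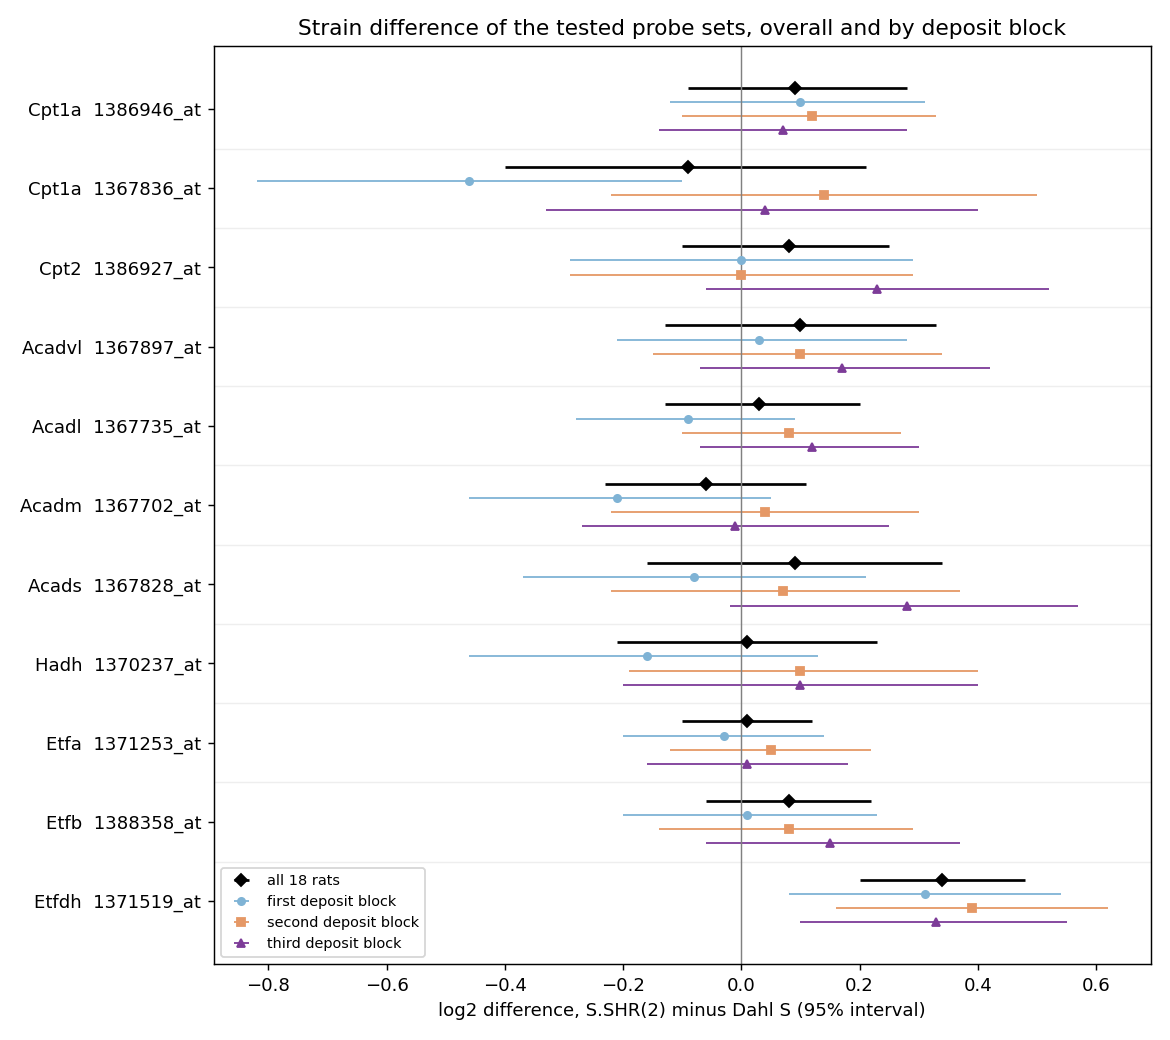
Log2 difference, S.SHR(2) minus Dahl S, with its 95% interval for the 11 tested probe sets, over all 18 rats (black) and within each deposit block (colours). Etfdh alone has all 4 intervals above 0, from 0.31 to 0.39 in the blocks, and the first-block interval of Cpt1a 1367836_at lies below 0.

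Levels by block are given without a test. Acadvl read 796.6 to 1072.9 in the first block, 686.5 to 899.1 in the second and 620.5 to 793.2 in the third. The bright Cpt1a probe set ran the other way, with 966.9 to 1324.7, 1183.7 to 1424.5 and 1255.3 to 1507.7. By deposited intensity, Acadl was at 1398.4 to 1522.8 in the Dahl S rats of the third block, below all 15 other kidneys. The 3 S.SHR(2) rats of that block read 1593.9 to 1824.5. On the normalized scale the Acadl ranges of the strains overlapped there, with a difference of 0.12 ± 0.0893 (SE). Etfdh kept to one range, with 676.6 to 1006.3, 636.3 to 1014.6 and 729.4 to 1039.6. None of the 11 probe sets had a block wholly apart from the other 2, whereas the third block lay below the rest for 5.39% of all tested and above it for 4.09%. The shares were 2.2% below and 1.98% above for the first block, and 0.601% below and 0.977% above for the second. Other tissue measures moved between the blocks too. The summed level of 15 proximal tubule markers was 59186 to 66997, 61568 to 69426 and 48286 to 59318 in the first, the second and the third block, and that of 5 tubular injury markers 2010 to 4345, 4223 to 6277 and 7115 to 12710. Their part in these levels was not tested.

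The injury sum of the first block was 2010 to 3593 in S.SHR(2) and 3191 to 4345 in Dahl S, and that of the second 4223 to 5108 in S.SHR(2) and 5711 to 6277 in Dahl S. The strains overlapped in the first and not in the second. In the third block the injury sum was 7115 to 9991 in S.SHR(2) and 11338 to 12710 in Dahl S, and the proximal tubule sum 53676 to 59318 in S.SHR(2) and 48286 to 55530 in Dahl S. These are sums of deposited intensities. Acads, Acadvl and Cpt2 were higher in S.SHR(2) in that block without overlap on the normalized scale. By deposited intensity Cpt2 overlapped there (from 266.7 in S.SHR(2), up to 267.5 in Dahl S), while Acadl and Hadh did not. Beside these readings the injury sum was lower in S.SHR(2) without overlap, while the proximal tubule sums of the strains overlapped. The part of either sum in those readings was not tested. Over all rats the proximal tubule sum was 53676 to 69426 in S.SHR(2) and 48286 to 65424 in Dahl S, and none of its 15 genes was called, with 10 above 0 and 5 below. The label of whole kidney fitted its markers, with Umod of the thick ascending limb at 5820.3 to 7695.2 in S.SHR(2) and 5258 to 7517.1 in Dahl S. Muscle, a tissue rich in these enzymes, was at or near 0, since its 4 markers summed to 18.2 to 51.2 in S.SHR(2) and 14.5 to 58.1 in Dahl S. The adipocyte marker Adipoq read 30.9 to 62.1 in S.SHR(2) and 23.9 to 58.7 in Dahl S, and Lep read 1.8 to 18.5 in S.SHR(2) and 1.3 to 13.4 in Dahl S. Cidec, the brightest adipocyte marker, read 117.6 to 307.9 in S.SHR(2) and 138.5 to 286.7 in Dahl S. The 5 adipocyte markers summed to 280 to 510 in S.SHR(2) and 316 to 474 in Dahl S. The median sum of 5 macrophage markers was 636 in S.SHR(2) and 666 in Dahl S, and none of the 4 tested was called, with all 4 below 0 at a median log2 difference of −0.19.

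Because S.SHR(2) carries SHR sequence on chromosome 2, the 3 genes there were set among their neighbours. In the gene order of GRCr8, Etfdh was the 316th, Hadh the 611th and Acadm the 681st of 691 tested genes of the chromosome, each represented by its brightest probe set. Of these 691 genes, 91 (13.2%) had an unadjusted p under 0.05, against 3.61% of 9759 genes on other chromosomes. Of the 691, 7 were called, Etfdh among them, against 0.123% of all tested probe sets. Every called probe set with a gene name lay on chromosome 2, except that of Wsb1 on chromosome 10. A call was thus not particular to Etfdh on this chromosome. Of the 5 tested genes on either side of Etfdh, 3 were above 0 and 7 below. Ppid, a peptidyl-prolyl isomerase and the tested gene just before it, had 875 ± 116 in S.SHR(2) and 762 ± 122 in Dahl S (SD, n = 9 each; log2 difference 0.18 ± 0.0963 SE, limma adjusted p = 1). Fnip2, a folliculin partner 2 genes away, had 1794 ± 267 in S.SHR(2) and 1447 ± 193 in Dahl S (0.27 ± 0.101, unadjusted p = 0.016, adjusted p = 1). Gucy1b1, 5 genes away, encodes part of the guanylate cyclase that senses nitric oxide and stood at 107 ± 20.2 in S.SHR(2) and 164 ± 34.8 in Dahl S (−0.51 ± 0.118, adjusted p = 0.14). A second probe set of Gucy1b1 was called as lower (−0.78 ± 0.117, adjusted p = 0.0025).

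The neighbours of Hadh and Acadm gave no call. The 10 genes around Hadh ran from −0.16 to 0.15 and those around Acadm from −0.19 to 0.15, and none of these 20 had an unadjusted p under 0.05. Hadh lies 6 genes beyond Pla2g12a, the 605th gene and the called gene with the smallest p (log2 difference 1.14 ± 0.0873 SE, limma adjusted p = 3.9e-07), which encodes a secreted phospholipase A2. No strain genotypes were analysed here, so which of the 3 genes lie inside the SHR segment was not determined.

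**Figure D3:**
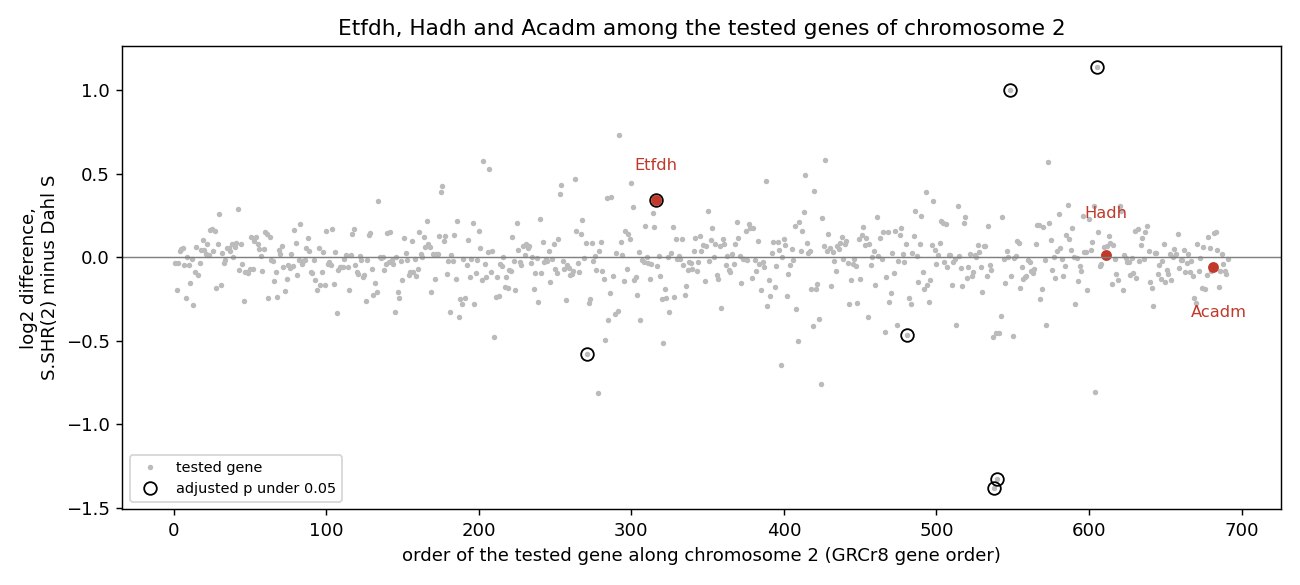
Log2 difference, S.SHR(2) minus Dahl S, of the 691 tested genes of chromosome 2 in gene order, with the 7 called genes circled. Etfdh (0.34) is circled and lies above its 10 neighbours (−0.51 to 0.27), while Hadh is at 0.01 and Acadm at −0.06.

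Other genes of the pathway gave no call. By the brightest probe set of each, of a list of 50 further genes for fatty acid uptake, activation, oxidation, ketone formation, ubiquinone synthesis and their regulators, 46 were on the array and 43 were tested. None was called in either direction, and 2 of the 43 had an unadjusted p under 0.05, against 4.02% of all tested. By the unrounded difference 25 lay above 0 and 18 below, against 51.5% above 0 among all tested, and the median was 0.01. Among their dimmer probe sets, 1 more had an unadjusted p under 0.05, Acsl1 1388153_at (−0.25 ± 0.109 SE, unadjusted p = 0.036, limma adjusted p = 1), while the brightest of Acsl1 stood at 0.01 ± 0.0986. The lowest value of any was −0.33 ± 0.181, for Pdk4 1369150_at. By deposited intensity, the summed level of the list was 38902 to 41416 in S.SHR(2) and 34679 to 36908 in Dahl S in the third block, without overlap. In the first it was 40784 to 41254 in S.SHR(2) and 38122 to 42994 in Dahl S. In the second it was 35470 to 37095 in S.SHR(2) and 35528 to 38902 in Dahl S, with overlap in both. On the normalized scale Eci1, Acaa2, Gcdh and Hadhb, the brightest genes of the list, stood at −0.01, 0.02, 0.13 and −0.03 in the third block. The sum was not tested. Ppargc1a, the coactivator that drives mitochondrial and fatty acid oxidation genes, had 353 ± 73 in S.SHR(2) and 421 ± 46.2 in Dahl S (SD, n = 9 each; −0.26 ± 0.104 SE, unadjusted p = 0.021, limma adjusted p = 1). Its other tested probe sets stood at −0.20 ± 0.11 and −0.24 ± 0.272. Rxra, the partner receptor of the PPAR family, had 37.3 ± 9.03 in S.SHR(2) and 27.7 ± 9.49 in Dahl S (0.34 ± 0.147, unadjusted p = 0.033, adjusted p = 1). This probe set was dim, at 24.2 to 49.8 in S.SHR(2) and 15.1 to 44.6 in Dahl S, near the level at which probe sets were left out.

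Genes that work next to Etfdh, and others of the pathway list, gave no call. Coq9, needed for synthesis of ubiquinone, had 1454 ± 109 in S.SHR(2) and 1303 ± 130 in Dahl S (0.13 ± 0.0658 SE, limma adjusted p = 1). Its dimmer probe set stood at −0.04 ± 0.143. Of the other Coq genes of the list, Coq2 stood at 0.13 ± 0.112, Coq3 at −0.07 ± 0.101 and Coq7 at −0.01 ± 0.149. Among other dehydrogenases that feed the flavoprotein, Gcdh of lysine breakdown stood at 0.07 ± 0.0597 and Ivd of leucine breakdown at −0.03 ± 0.183. Dmgdh and Sardh of choline breakdown stood at 0.05 ± 0.0754 and 0.17 ± 0.12. Of the further Acad genes of the list, Acadsb stood at −0.14 ± 0.203, Acad8 at 0.08 ± 0.0932 and Acad9 at 0.06 ± 0.0617. Acad10 stood at 0.08 ± 0.0966 and Acad11 at 0.03 ± 0.102. None of these dehydrogenases was called. Hadha and Hadhb, the trifunctional protein that continues long-chain oxidation, stood at 0.01 ± 0.121 and 0.04 ± 0.0731, and a dimmer probe set of Hadha at −0.19 ± 0.12. The dimmer probe sets of Gcdh stood at 0.08 ± 0.158 and 0.06 ± 0.144, and that of Sardh at 0.22 ± 0.153. Acsl4, an acyl-CoA synthetase, had 517 ± 58.5 in S.SHR(2) and 581 ± 88.1 in Dahl S (−0.17 ± 0.0926), and Crat, the carnitine acetyltransferase, 741 ± 91.1 in S.SHR(2) and 658 ± 92.6 in Dahl S (0.16 ± 0.091). Both had a limma adjusted p of 1.

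**Figure D4:**
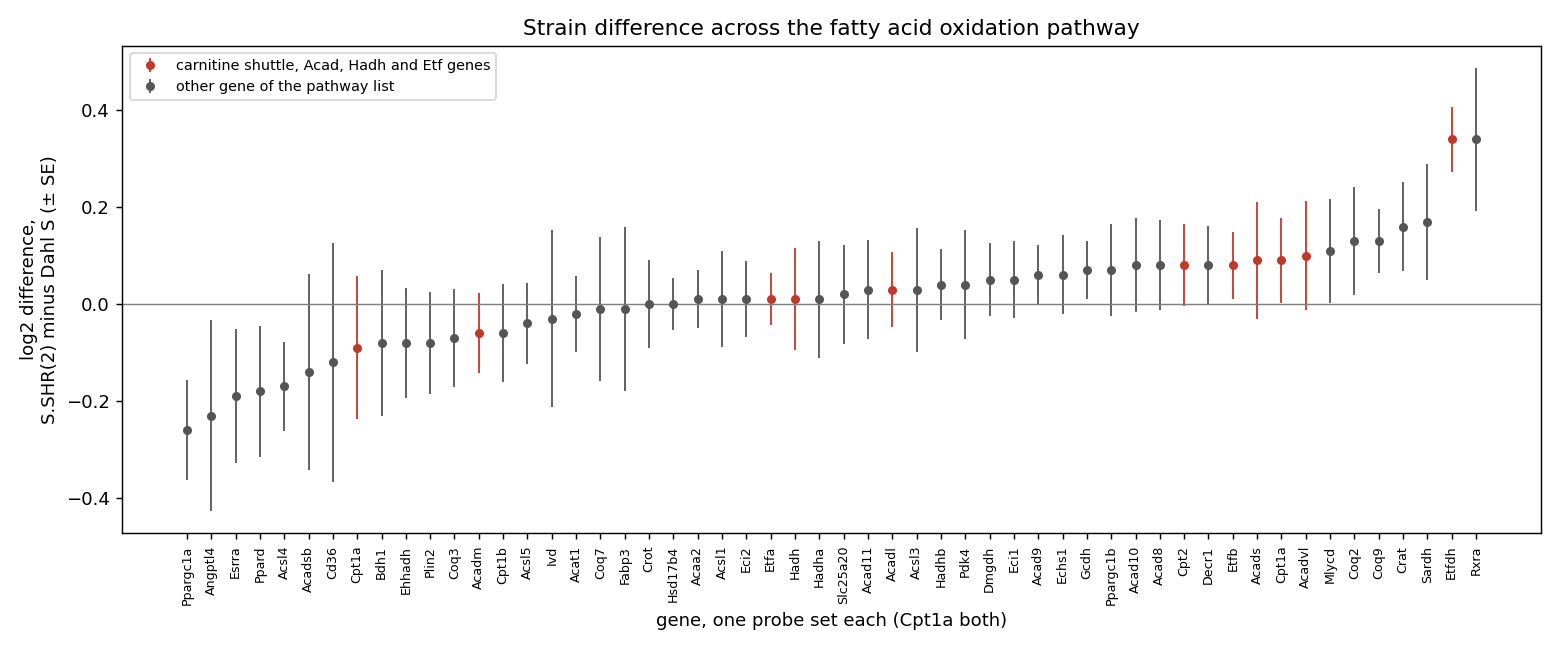
Log2 difference, S.SHR(2) minus Dahl S (± SE), of the 11 tested probe sets of the 10 genes (red) and of 43 further pathway genes by the brightest probe set of each (grey), ordered by size. Among the values drawn, Etfdh and Rxra share the highest value, 0.34, with SE 0.0668 and 0.147, and Ppargc1a has the lowest, −0.26. The Rxra probe set is dim, with a mean intensity of 37.3 in S.SHR(2) and 27.7 in Dahl S.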

How the data were processed

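The authors deposited 1 intensity per probe set and array, linear, with the same 2% trimmed mean on each array (150.046 to 150.054 by the values). Of the software that made them, the sources used here say nothing. The 57 control probe sets were left out of the tests. Values were transformed as log2(intensity + 16) and, since array medians spanned 0.235, above a limit of 0.2, quantile normalized. Probe sets with a mean under 5.48, the dimmest 40%, were left out. Strains were compared with limma 3.58.1 (R 4.3.3), lmFit and eBayes with an intensity trend, two-sided, adjusted by Benjamini-Hochberg over 18625 probe sets. Within-block differences came from cell means of strain and block with 1 shared spread. Titles name each array as its own rat, so p-values measure the spread between rats. In the fit over all rats that spread includes any shift between deposit blocks. With the block as a covariate the SE went from 0.112 to 0.0662 for Acadvl and from 0.0668 to 0.0609 for Etfdh.

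Gene names came from the platform annotation (20826 name 1 gene, 436 several, 9780 none), and 20758 matched the GRCr8 gene table. Apart from the promoter windows, gene positions are given as order only. The 10 genes and the lists were chosen with earlier results of these data known. Genes named were the 10, called or lowest-p genes of the pathway list, and called or lowest-p neighbours. Pla2g12a, Crat, Ivd, Gcdh, Dmgdh, Sardh, Hadha, Hadhb, Eci1 and Acaa2 were chosen after seeing the data. So were the further Acad and Coq genes of the list and the dimmer probe sets of pathway genes. The model was checked on simulated data with independent noise, no shifts between blocks and planted differences larger than that of Etfdh. That check therefore does not cover block shifts, ties between probe sets or a difference as small as that of Etfdh. Alternatives were the pseudocount, the filter, the scaling, the variance model, array weights, covariates, 1 probe set per gene and leaving out each rat. Figures used matplotlib 3.10.9.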

Additional observations from a re-analysis of the deposited data

Results flagged for a closer look

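Of 22 groups of 9 rats, 11 probe sets in each strain, 2 held a rat far from the others by Dixon's test on the normalized log2 scale, and chance flags about 1 group in 20. Acadm was low in Dahl S replicate 5, at a deposited intensity of 2518.5, with a gap to the next rat of 0.569 of the group's range on the normalized log2 scale. That array had the second highest GAPDH 3′/5′ ratio, 2.04. Etfb was low in S.SHR(2) replicate 9, at a deposited intensity of 2056.8, with a gap of 0.535 of the range on the same log2 scale. The GAPDH ratio of that array was 1.52.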

How the results depend on the processing

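The Etfdh difference was above 0 in every fit run, from 0.32 to 0.41 over 16 settings and from 0.31 to 0.37 without 1 rat, and the call stood in 11 of the 16 settings and in 5 of 18 fits without 1 rat. The count of called probe sets among the 11 was 1, and 0 without a filter on dim probe sets (Etfdh adjusted p = 0.0503), without the intensity trend (0.067), by the brightest probe set of each gene adjusted over genes (0.062), at an adjusted p of 0.01 and without both arrays of high GAPDH ratio (0.058). It was 0 or 1 without 1 rat. The count over all probe sets was 23 and ran from 16 to 28 without 1 rat. It was 41 under array weights, 64 with a residual component in the model (1 component), 92 with the deposit block as a covariate, and over genes 10 with averaged and 6 with brightest probe sets, where fewer features were tested. Within blocks no call was made, and 1 was made with arrays centred on their medians, Etfdh in the third block (0.51, adjusted p = 0.043). Signs of differences near 0 turned: Acadm with arrays centred on their medians (0.01), Cpt1a with its probe sets averaged (0.00, unrounded below 0), Etfa without the 2 arrays of high GAPDH ratio (0.00, unrounded below 0) and without 1 rat (−0.01 to 0.02), and Hadh without 1 rat (−0.04 to 0.08). The cause was not tested. No paired analysis was possible because the replicate numbers follow accession order and pair no rats.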
